A study of Mus musculus with 67 samples.

Results

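The 8-week marrow course consists of 6 RNA-seq libraries that follow monocyte formation in the bone marrow of C57BL/6 mice. There are duplicate libraries, numbered I and II, of the monocyte and dendritic cell progenitor (MDP), of the common monocyte progenitor (cMoP) and of marrow Ly6C+ monocytes. They were taken by their column labels (MDP, CMOPS and BM Ly6C P, each I and II) from a table of 16 libraries, within a series of 67. The question was how the transcriptome differs at the 2 steps of the course, cMoP against MDP and Ly6C+ monocytes against cMoP (n = 2 each). Both comparisons use the same cMoP libraries, so a gene that lies high in them by error leans upward at the first step and downward at the second.

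The series sequenced sorted mouse monocytes and their progenitors. For the 6 marrow libraries, bones of 8-week mice were crushed, cells carrying CD115 (the receptor encoded by Csf1r) were enriched on magnetic beads and populations were sorted by flow cytometry, without lysis of red cells, before RNA was captured on oligo-dT beads. The other 10 libraries of the table are blood monocytes, namely Ly6C+ and Ly6Cint cells of ko mice, whose labels name no gene, and Ly6C+, Ly6Cint and Ly6C- cells of wt mice, all 16 weeks old and of mixed background (n = 2 each), and they enter the tests only through the shared estimate of spread. Marrow MDP, cMoP and Ly6C+ libraries of 7-week C57BL/6 mice (11 in all) stand in another table, scaled and fitted separately. No label says whether I and II came from separate mice, so the spread between them may be technical. The p-values rest on a spread estimated over all 16 libraries of the table, the blood libraries included.

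In the mouse, MDPs are marrow cells that can still give rise to both monocytes and conventional dendritic cells. cMoPs are their descendants restricted to the monocyte lineage, and they mature into Ly6C+ (classical) monocytes, which enter the blood and migrate into inflamed tissue. Flt3, a cytokine receptor of early progenitors, is used to tell MDPs from cMoPs, Kit, the stem cell factor receptor, marks both progenitors, and the surface protein Ly6C marks cMoPs and classical monocytes.

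Each library had between 942751 and 2010397 reads on the listed genes, so 1 read was worth 0.391 to 0.833 RPM (reads per 1000000 reads), and between 11060 and 12555 genes were above 0. The sort markers ran in the direction of the labels. Flt3 had 317 and 317 RPM in MDP, 25.8 and 20.6 RPM in cMoP and 2.45 and 5.00 RPM in Ly6C+ monocytes. Ly6c2, which encodes the Ly6C antigen of monocytes and shares sequence with Ly6c1, had 258 and 279 RPM in MDP, 3355 and 4122 RPM in cMoP and 4899 and 4811 RPM in Ly6C+ monocytes. Kit had 101 and 87.6 RPM, 26.3 and 45.0 RPM, and 0 and 0.833 RPM at the same stages. Csf1r, the receptor by which the cells were enriched, was present throughout, at 355 and 331 RPM in MDP, 562 and 569 RPM in cMoP and 781 and 983 RPM in Ly6C+ monocytes. Across genes, log2 values correlated with r = 0.965 between the MDP libraries, 0.940 between the cMoP libraries and 0.963 between the Ly6C+ libraries. MDP I with cMoP II (0.945) and MDP II with cMoP I (0.943) were as alike as the cMoP duplicates were.

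**Figure D1:**
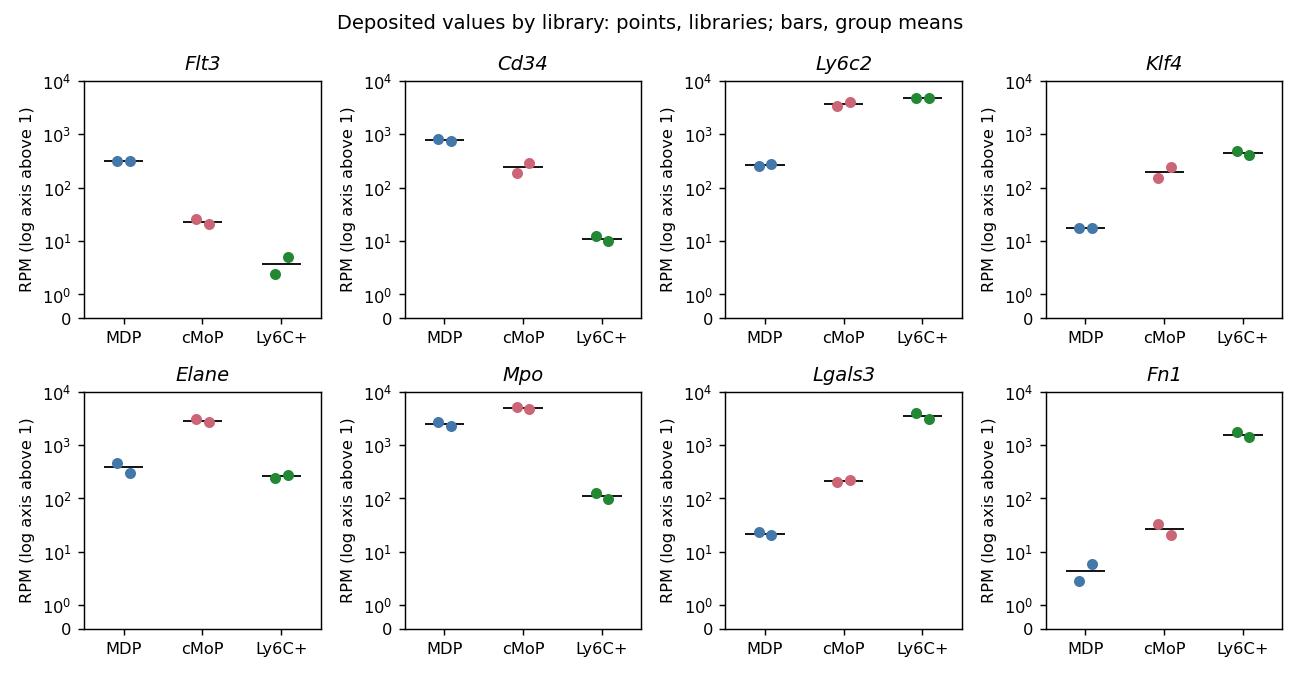
RPM (axis linear below 1 and logarithmic above) of 8 stage genes in each of the 6 libraries, at MDP, cMoP and Ly6C+ in order of the course, with 1 point per library and a bar at each group mean. Flt3 and Cd34 fall stage by stage, Ly6c2 lies at 3355 RPM or more from cMoP on, and Elane and Mpo are highest in cMoP.

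Between the progenitors, cMoP differed from MDP in 552 of 11388 genes tested (4.85%), of which 208 were higher in cMoP (1.83%) and 344 lower (3.02%). A gene counted as changed where its adjusted p in the limma fit was under 0.05, and log2 ratios are of RPM plus 1, which understates the ratios of low genes. Of the gene lists, 12 of 25 progenitor genes and 7 of 24 dendritic and lymphoid genes fell, while 9 of 26 monocyte effectors, 6 of 17 primary granule genes and 5 of 32 phagocytic and Fc receptor genes rose. The median log2 ratio of all genes tested was -0.18, which became 0.00 under TMM scaling, so list medians of this step are to be read against -0.18. The share of the changed genes that were higher was 37.7% here, 72.9% with edgeR and TMM on recovered reads, 80.3% with DESeq2 and 58.3% with quantile scaling. With the spread estimated from the 6 marrow libraries alone, 48 genes passed, 23 higher and 25 lower. Among the calls lost there were those of Egfl7, Tcf4, Adgrg1, Tctex1d1, Mgl2, S100a4, Cd14, Cd163 and Trem2, which are named below. Without MDP I 225 genes passed, and without MDP II 279.

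Of the 25 progenitor genes tested, 12 were lower in cMoP, 0 were higher and 13 did not pass, with a median log2 ratio of -1.47 (-1.43 with the member at 0 in cMoP set at its bound). The count of 12 was 5 without MDP I, 6 with edgeR or DESeq2, and 2 in the 6 marrow libraries alone. Flt3, a sort marker counted among the 12, fell by 3.72 on the log2 scale (SE 0.37, adjusted p = 4.62e-05), with both cMoP libraries far below both MDP libraries. It fell further in Ly6C+ monocytes. Cd34, a surface sialomucin of early progenitors, had 187 and 297 RPM in cMoP and 832 and 762 RPM in MDP, a log2 ratio of -1.75 (adjusted p = 0.00565), whose adjusted p was 0.0677 without MDP I and 0.0652 without cMoP I. Egfl7, a secreted protein of stem and endothelial cells, had 30.6 and 22.5 RPM in cMoP and 107 and 155 RPM in MDP (log2 ratio -2.25, adjusted p = 0.00165). Kit, with a log2 ratio of -1.43, missed the threshold (adjusted p = 0.0516) although its libraries did not overlap.

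Genes linked to lymphoid and dendritic fate included the steepest losses of the step. Dntt, the template-independent polymerase of lymphocyte receptor recombination, had 2.19 and 5.00 RPM in cMoP and 67.7 and 76.6 RPM in MDP (log2 ratio -4.06, SE 0.38, adjusted p = 2.56e-05). Aff3, a nuclear protein of the lymphoid lineage, had 4.38 and 3.12 RPM in cMoP and 72.7 and 49.2 RPM in MDP (log2 ratio -3.69, adjusted p = 2.56e-05). Both were at 0 in the 2 Ly6C+ libraries. Tcf4, a transcription factor required for plasmacytoid dendritic cells, had 19.3 and 33.1 RPM in cMoP and 73.9 and 78.6 RPM in MDP (log2 ratio -1.55, adjusted p = 0.00286), and it had 25.8 and 26.6 RPM in Ly6C+ monocytes (log2 ratio against cMoP 0.05, adjusted p = 0.903). Over the dendritic and lymphoid list, 7 of 24 genes fell and 0 rose by the limma test, with a median of -0.23. At an unadjusted p under 0.05, 9 were lower and 7 higher, and edgeR and DESeq2 each called 4 higher. The 7 became 3 without MDP I and 3 in the 6 marrow libraries alone.

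Within that list cMoP I stood apart through MHC class II, the molecules that present peptide to CD4 T cells. H2-Ab1 had 1075 RPM in cMoP I and 134 RPM in cMoP II, against 137 and 127 RPM in MDP. Cd74, the class II invariant chain, had 717 and 78.1 RPM in cMoP, against 55.8 and 75.8 RPM in MDP. The list summed to 3592 RPM in cMoP I and 844 RPM in cMoP II, against 1449 and 1386 RPM in MDP. Without cMoP II, 8 members of the list were higher in cMoP, and none passed in that direction with both libraries; what the difference between the cMoP libraries reflects was not tested.

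Genes called lower at both steps included Adgrg1, Cd27, Nrgn and Sox4. Adgrg1, an adhesion G protein-coupled receptor of stem cells, had 335 and 347 RPM in MDP, 48.1 and 50.6 RPM in cMoP and 1.23 and 5.83 RPM in Ly6C+ monocytes. Its log2 ratio was -2.76 in cMoP against MDP (adjusted p = 0.00456) and -3.69 in Ly6C+ against cMoP (adjusted p = 5.34e-05). Cd27, a tumour necrosis factor receptor family member of early progenitors and lymphocytes, had 271 and 247 RPM in MDP, 39.4 and 29.4 RPM in cMoP and 0 and 0.833 RPM in Ly6C+ monocytes (log2 ratio -2.89 at the first step, adjusted p = 0.000587). Nrgn, a calmodulin-binding protein also abundant in platelets, had 125 and 161 RPM in MDP, 8.75 and 14.4 RPM in cMoP and 0 in both Ly6C+ libraries, with a log2 ratio of -3.55 at the first step (adjusted p = 9.69e-05). Sox4, a transcription factor of progenitors, had 479 and 405 RPM in MDP, 84.9 and 98.0 RPM in cMoP and 3.68 and 3.33 RPM in Ly6C+ monocytes. Its first-step ratio of -2.26 (adjusted p = 0.01) had an adjusted p of 0.102 without MDP I, 0.0608 without MDP II and 0.0635 without cMoP I. Markers of platelets and megakaryocytes, in which Nrgn was also listed, summed to 21.9 and 85.6 RPM in cMoP and 166 and 331 RPM in MDP. These sums include Nrgn itself, at 8.75 and 14.4 RPM in cMoP and 125 and 161 RPM in MDP, so its fall is part of theirs. Whether the fall of Nrgn goes with the other markers was not tested.

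Several azurophil (primary) granule genes were highest in cMoP. These genes encode the proteases and peroxidase that myeloid progenitors make and store before they mature. Elane, neutrophil elastase, had 464 and 305 RPM in MDP, 3023 and 2722 RPM in cMoP and 244 and 279.8 RPM in Ly6C+ monocytes. It rose by a log2 ratio of 2.93 in cMoP against MDP (SE 0.30, adjusted p = 6.63e-05) and fell by 3.45 on the log2 scale in Ly6C+ against cMoP (adjusted p = 9.14e-07). Mpo, myeloperoxidase, was already abundant in MDP, with 2711 and 2296 RPM there, 5164 and 4734 RPM in cMoP and 128 and 98.3 RPM in Ly6C+ monocytes. Its first-step ratio of 0.99 did not pass (adjusted p = 0.178) and its second, -5.45 (SE 0.38, adjusted p = 1.02e-07), did. Prtn3, proteinase 3, had 4066 and 4409 RPM, 11174 and 7474 RPM, and 1018 and 759 RPM at the 3 stages, with log2 ratios of 1.11 (adjusted p = 0.0708) and -3.38 (adjusted p = 2.68e-06). Ctsg, cathepsin G, followed with 1873 and 1753 RPM, 4238 and 2545 RPM, and 256 and 172 RPM.

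The granule list did not move as a block. At the first step 6 of 17 members were higher and 0 lower, with a median of 0.85, but the 6 became 2 without MDP I or without MDP II and 3 without cMoP II. The first-step calls of the list with the smallest p were Elane, Gstm1, Lyz2 and Ms4a3, and Mpo and Prtn3 did not pass. At the second step 12 members were lower, 4 were higher and 1 did not pass, with a median of -2.27. Lyz2, lysozyme M, was among the 4, with 9401 and 10646 RPM in Ly6C+ monocytes and 520.4 and 369.7 RPM in cMoP (log2 ratio 4.51, adjusted p = 3.42e-09). Fcnb, ficolin B of the lectin complement pathway, had 71.2 and 98.3 RPM in Ly6C+ monocytes and 23.6 and 24.4 RPM in cMoP (log2 ratio 1.76, adjusted p = 0.00108). Gstm1, a glutathione transferase on the same list, reached 649.5 and 465 RPM in cMoP against 148 and 161 RPM in MDP (log2 ratio 1.82, adjusted p = 0.000479) and had 658 and 549 RPM in Ly6C+ monocytes, a second-step log2 ratio of 0.13 that did not pass.

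**Figure D2:**
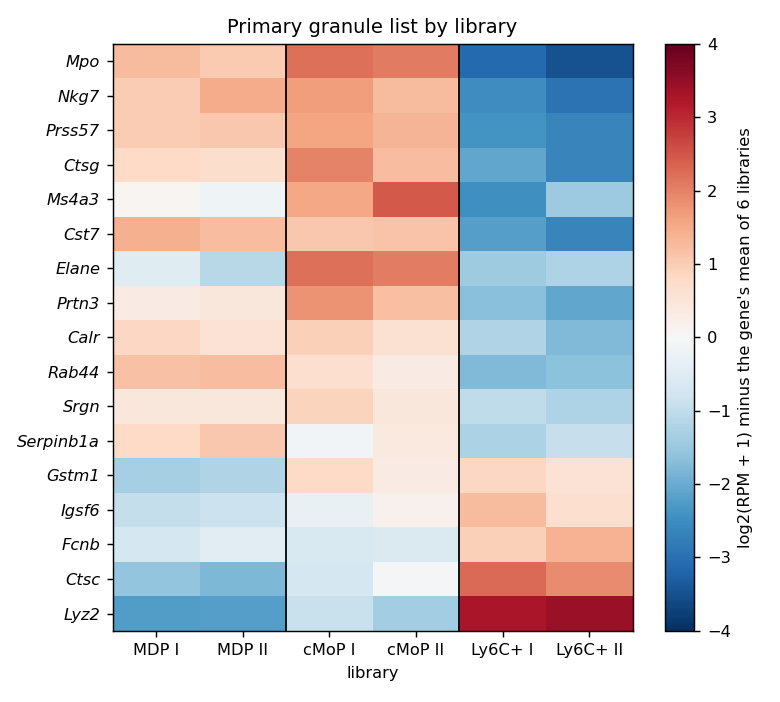
Primary granule genes (17 tested) by library, coloured by log2 of RPM plus 1 minus the mean of the gene over the 6 libraries, with genes ordered by their log2 ratio in Ly6C+ against cMoP. The 12 genes that fell at that step are blue in both Ly6C+ columns, and the 4 that rose, Lyz2 among them, are red there.

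Genes outside the granule list that were higher in cMoP than in both other stages included Tctex1d1 and Mgl2. Tctex1d1, a dynein light chain family gene, had 4.54 and 4.69 RPM in MDP, 30.2 and 25 RPM in cMoP and 3.07 and 3.33 RPM in Ly6C+ monocytes (log2 ratios 2.34, adjusted p = 0.000564, and -2.76). Mgl2, a galactose-type lectin of dendritic cells and macrophages, had 2.06 and 1.56 RPM, 14 and 26.9 RPM, and 1.84 and 4.16 RPM (log2 ratios 2.87, adjusted p = 0.00302, and -2.42). Ms4a3, on the granule list and a tetraspan protein expressed by granulocyte-monocyte progenitors, had 40.1 and 34.0 RPM, 112 and 211 RPM, and 6.14 and 13.3 RPM. Its rise at the first step (log2 ratio 2.03, adjusted p = 0.00906) had an adjusted p of 0.0507 without MDP I, 0.0745 without MDP II and 0.0550 without cMoP II.

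Some monocyte effector genes rose in cMoP and again in Ly6C+ monocytes. Of 26 such genes, 9 were higher in cMoP than in MDP, 0 were lower and 17 did not pass, with a median of 0.72 (0.98 without 2 members too low for a ratio), and 3 passed in the 6 marrow libraries alone. Ly6c2, a sort marker counted among the 9, had the largest rise of the step, a log2 ratio of 3.79 (SE 0.50, adjusted p = 0.000465), a call that DESeq2 did not make. It then did not pass between Ly6C+ and cMoP (log2 ratio 0.38, adjusted p = 0.576). F10, coagulation factor X, had 7.44 and 8.21 RPM in MDP, 60.4 and 71.8 RPM in cMoP and 291 and 348 RPM in Ly6C+ monocytes, rising by log2 ratios of 2.92 (adjusted p = 3.45e-06) and 2.25 (adjusted p = 2.6e-06). Hp, haptoglobin, had 181 and 235 RPM, 738 and 734 RPM, and 1708 and 2033 RPM. S100a4, a calcium-binding protein, had 28.1 and 50.4 RPM, 158 and 122 RPM, and 3060.4 and 4000.2 RPM, with log2 ratios of 1.86 and 4.64.

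Of 32 phagocytic and Fc receptor genes, 5 rose, 1 fell and 26 did not pass at the first step, and the 5 became 3 without MDP I or without cMoP I. Fcgr3, a low-affinity receptor for IgG, had 329 and 307 RPM in cMoP against 37.2 and 45.0 RPM in MDP (log2 ratio 2.93, SE 0.20, adjusted p = 1.33e-06) and 591 and 573 RPM in Ly6C+ monocytes (log2 ratio against cMoP 0.87, adjusted p = 0.00353). Cd163, the 1 that fell, had 0.875 and 2.50 RPM in cMoP against 17.4 and 9.77 RPM in MDP (log2 ratio -2.46, adjusted p = 0.0036). In the 6 marrow libraries alone that call was lost, as were the first-step calls of Cd14 and Trem2 below. DESeq2 did not make the first-step call of Tgfbi. Cd14, the lipopolysaccharide co-receptor, is on the Toll-like receptor list. It had 12.3 and 16.9 RPM in cMoP against 1.65 and 1.95 RPM in MDP (log2 ratio 2.46, adjusted p = 0.000265). Lgals3, galectin 3, is also outside the phagocytic and Fc receptor list. It had 23.1 and 20.7 RPM in MDP, 199.6 and 218 RPM in cMoP and 3913 and 3119 RPM in Ly6C+ monocytes, with log2 ratios of 3.19 and 4.06. Tgfbi, an extracellular matrix protein, had 14.9 and 18.4 RPM, 76.6 and 64.3 RPM, and 998 and 781 RPM. Trem2, a lipid-binding receptor of macrophages, was among the genes with the largest first-step ratios, with 37.2 and 43.7 RPM in cMoP against 2.06 and 9.38 RPM in MDP (log2 ratio 2.87, adjusted p = 0.000785).

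Of 40 transcription factors, 6 were higher and 2 lower in cMoP than in MDP, with a median of 0.14, and the 6 became 1 without MDP I and 2 without cMoP I. Klf4, which is required for monocyte formation in mice, had 151 and 249 RPM in cMoP against 17.8 and 17.6 RPM in MDP (log2 ratio 3.38, SE 0.22, adjusted p = 1.13e-06) and 493 and 416 RPM in Ly6C+ monocytes (log2 ratio against cMoP 1.22, adjusted p = 0.000613). Cebpb, which encodes the factor C/EBPb that the series is titled for, had 42.1 and 53.5 RPM in MDP, 147 and 154 RPM in cMoP and 521 and 435 RPM in Ly6C+ monocytes. Its second step was a log2 ratio of 1.66 (adjusted p = 0.0033). The first, 1.64 (SE 0.38, adjusted p = 0.0205), had an adjusted p of 0.202 without MDP I, 0.0885 without MDP II, 0.0848 without cMoP I and 0.0668 without cMoP II.

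Irf8, a factor needed for monocyte and dendritic cell progenitors, had 948 and 1064 RPM in MDP and 1032 and 1031 RPM in cMoP (log2 ratio 0.04, adjusted p = 0.94), and fell to 482 and 593 RPM in Ly6C+ monocytes (log2 ratio against cMoP -0.95, SE 0.16, adjusted p = 0.000309). Spi1, which encodes PU.1, had 190.4 and 216 RPM, 326 and 303 RPM, and 388 and 452 RPM, and passed at neither step (adjusted p = 0.117 and 0.145). Cebpa, a factor of early myeloid commitment, lay between 54.1 and 82.4 RPM in all 6 libraries and passed at neither step. Gfi1, a repressor that favours the granulocyte fate, had 20.2 and 18 RPM in MDP and 24.9 and 18.7 RPM in cMoP. It had 0 reads in both Ly6C+ libraries, at least 8.74-fold lower than in cMoP, taking 3 reads in the shallower Ly6C+ library (2.5 RPM) as the limit that a count of 0 allows.

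Ly6C+ monocytes differed from cMoP in 4189 of the 11388 genes (36.8%), with 1859 higher (16.3%) and 2330 lower (20.5%). The median of all genes was -0.10, and 501 higher and 525 lower genes had a log2 ratio of at least 2 in size. Most members of the interferon, Toll-like receptor, oxidase and lysosome lists rose, and most members of the progenitor, primary granule, DNA replication and ribosome biogenesis lists fell. In sorted bulk RNA, fewer cells of a type and less RNA per cell cannot be told apart.

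**Figure D3:**
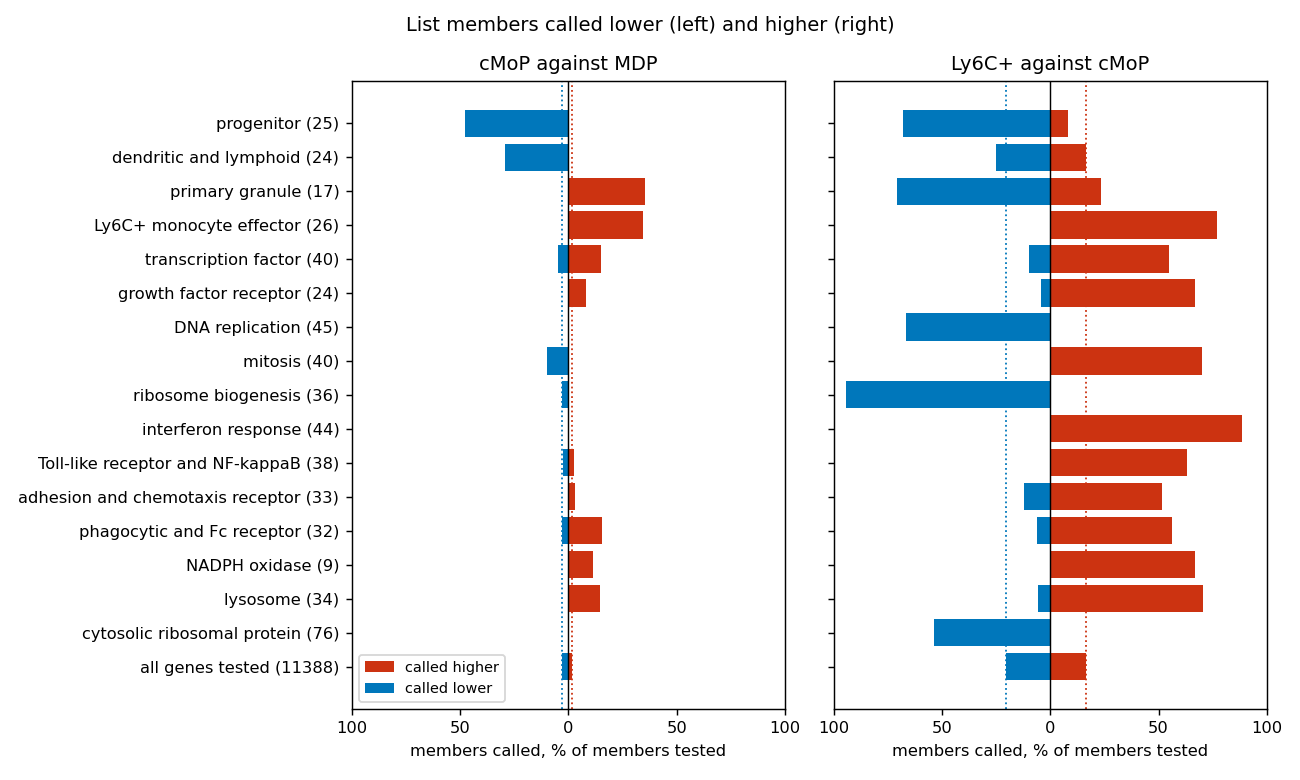
Percent of the tested members of each gene list that passed as lower (left) or higher (right), in a panel for each step. Lists of cell type markers are left out. The number tested is in parentheses, and dotted lines lie at the share over all genes (1.83% higher and 3.02% lower in cMoP against MDP, 16.3% and 20.5% in Ly6C+ against cMoP). Interferon response, with 39 of 44 higher, and ribosome biogenesis, with 34 of 36 lower, lie at the ends of the second step.

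Several of the largest rises were in genes with few reads in cMoP, though not that of Fn1. Galnt9, an enzyme that starts O-linked glycans, had 73.0 and 77.4 RPM in Ly6C+ monocytes and 0 in both cMoP libraries, at least 40.2-fold higher. Slfn1, a Schlafen family gene, had 193 and 234 RPM in Ly6C+ monocytes and 2.63 and 2.5 RPM in cMoP (log2 ratio 5.90, SE 0.23, adjusted p = 1.37e-09). Fn1, fibronectin, had 1731 and 1395 RPM in Ly6C+ monocytes and 32.8 and 20.6 RPM in cMoP (log2 ratio 5.85, SE 0.44, adjusted p = 2.29e-07). Tlr13, a sensor of bacterial ribosomal RNA, had 144 and 166 RPM in Ly6C+ monocytes and 2.19 and 3.12 RPM in cMoP (log2 ratio 5.42). Msr1, a scavenger receptor, had 120 and 94.9 RPM against 0.438 and 3.12 RPM in cMoP (log2 ratio 5.47). Of the 26 monocyte effectors, 20 rose and 0 fell at this step, with a median of 2.17.

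The interferon response list rose at the second step. At the first step 0 of 44 genes passed in either direction with limma, edgeR or DESeq2 (median -0.30), and 1 was higher and 8 lower at an unadjusted p under 0.05. At the second 39 rose, 0 fell and 5 did not pass, with a median of 1.94. The summed level was 1626 and 1681 RPM in MDP, 1520 and 1589 RPM in cMoP, and 7387 and 6941 RPM in Ly6C+ monocytes. Irf7, the factor that amplifies type I interferon production, had 24.8 and 27.8 RPM in MDP, 28.0 and 26.9 RPM in cMoP and 509 and 396 RPM in Ly6C+ monocytes (log2 ratio against cMoP 3.98, SE 0.17, adjusted p = 2.23e-09). Ifi27l2a, an interferon-induced gene, had 1924 and 2070.1 RPM in Ly6C+ monocytes against 93.7 and 77.4 RPM in cMoP (log2 ratio 4.53). Ifitm3, which restricts virus entry, had 1549.8 and 1761 RPM against 223 and 205 RPM (log2 ratio 2.94). Bst2, the tether that retains budding virus, was among the 5 that did not pass, with 275 and 186 RPM in Ly6C+ monocytes and 386 and 205 RPM in cMoP.

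The promoters of 4 members are shown because they carry the letters of the interferon-stimulated response element, to which the interferon-activated complex ISGF3 and IRF factors bind. The motif searched was GAAANNGAA on both strands, in the 250 bases before the RefSeq start of the gene (GRCm38.p6). The members are those with the largest log2 ratios among the rising genes that have a window and hold it. Promoters on a single chromosome were left out of this choice. Capitals mark each match, which reads as its reverse complement where it lies on the other strand, and matches that overlap run together in Ifit1 and Oas3. Each window is given in the direction of its gene.
Ifit3, chr19:34583397-34583465 (+): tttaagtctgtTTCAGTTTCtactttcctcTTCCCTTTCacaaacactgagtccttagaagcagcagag
Ifit1, chr19:34640775-34640843 (+): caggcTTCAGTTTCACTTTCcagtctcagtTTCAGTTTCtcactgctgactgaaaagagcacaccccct
Rsad2, chr12:26456533-26456601 (-): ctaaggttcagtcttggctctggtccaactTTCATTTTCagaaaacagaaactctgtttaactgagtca
Oas3, chr5:120777690-120777758 (-): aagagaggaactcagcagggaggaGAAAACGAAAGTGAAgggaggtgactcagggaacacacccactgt

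These genes encode antiviral proteins, and all 4 rose at the second step. Ifit3, which binds foreign RNA in a complex with other IFIT proteins, had 41.1 and 36.6 RPM in Ly6C+ monocytes against 1.31 and 0 RPM in cMoP (log2 ratio 4.71, adjusted p = 1.69e-07). Ifit1, which recognises RNA caps without 2'-O methylation, had 34.4 and 30 RPM against 0 and 1.87 RPM in cMoP (log2 ratio 4.29). Rsad2, viperin, had 77.9 and 65.0 RPM against 5.69 and 1.25 RPM in cMoP (log2 ratio 4.22). Oas3, a synthase of the second messenger that activates RNase L, had 60.1 and 48.3 RPM against 3.5 and 6.87 RPM in cMoP (log2 ratio 3.21). The motif was found in 16 of the 32 list members that have a window, and in 8.2% of all 27025 genes that have a window. Because only 32 of the 44 members have a window, a share over the list is void.

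In the Toll-like receptor and NF-kappaB list 24 of 38 genes rose and 0 fell at the second step, with a median of 1.31. Nfkbia, the inhibitor of NF-kappaB that is also its target, had 248 and 291 RPM in Ly6C+ monocytes and 40.3 and 64.9 RPM in cMoP (log2 ratio 2.37, adjusted p = 6.66e-06). Il1b, which encodes the cytokine interleukin 1 beta, had 4.29 and 5.83 RPM in Ly6C+ monocytes and 6.57 and 3.12 RPM in cMoP, and did not pass (log2 ratio 0.11, adjusted p = 0.881). In the adhesion and chemotaxis list 17 of 33 rose and 4 fell, and the 4 became 1 without cMoP II or without Ly6C+ II. Itgam, the CD11b integrin chain, had 315 and 355 RPM in Ly6C+ monocytes against 40.3 and 43.7 RPM in cMoP (log2 ratio 2.96, adjusted p = 5.66e-08), and its partner chain Itgb2 had 664 and 600.4 RPM against 81.4 and 79.3 RPM (log2 ratio 2.96).

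Ccr2, the chemokine receptor by which classical monocytes leave the marrow, had 101 and 73.9 RPM in MDP, 72.7 and 117 RPM in cMoP and 458 and 454 RPM in Ly6C+ monocytes. The rise at the second step was 2.29 (SE 0.60, adjusted p = 0.00803), with an adjusted p of 0.0714 without cMoP I. Cx3cr1, the fractalkine receptor, had 128 and 145 RPM in Ly6C+ monocytes against 38.5 and 80.6 RPM in cMoP (log2 ratio 1.27, adjusted p = 0.00505, and 0.0833 without cMoP I). Csf1r rose by a log2 ratio of 0.63 (adjusted p = 0.0336), which had an adjusted p of 0.214 without Ly6C+ II, 0.103 without cMoP I and 0.0800 without cMoP II. Of 24 growth factor and cytokine receptors, 16 rose and 1 fell. Csf2rb, the shared chain of the GM-CSF, IL-3 and IL-5 receptors, had 379.8 and 340 RPM in Ly6C+ monocytes against 142 and 180 RPM in cMoP (log2 ratio 1.16, adjusted p = 0.000113).

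Of the 9 NADPH oxidase genes, which produce superoxide in phagocytes, 6 rose and 0 fell. Cybb, the catalytic subunit, had 1360.2 and 1050.0 RPM in Ly6C+ monocytes against 124 and 152 RPM in cMoP (log2 ratio 3.11, adjusted p = 5.71e-07). Ncf1, a cytosolic organiser of the complex, had 385 and 428 RPM against 358 and 363 RPM and did not pass (log2 ratio 0.17, adjusted p = 0.474). In the lysosome list 24 of 34 rose and 2 fell, with a median of 1.01. Ctss, the cathepsin that trims the invariant chain, had 2313 and 1895 RPM in Ly6C+ monocytes against 298 and 267 RPM in cMoP (log2 ratio 2.89), whereas Ctsd, cathepsin D, had 472 and 513 RPM against 379 and 352 RPM and did not pass (log2 ratio 0.43, adjusted p = 0.186). Of the 32 phagocytic and Fc receptors 18 rose and 2 fell. Fcgr1, the high-affinity receptor for IgG, had 207 and 185 RPM in Ly6C+ monocytes against 10.1 and 8.12 RPM in cMoP (log2 ratio 4.29, adjusted p = 1.11e-07).

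Among the transcription factors 22 of 40 rose and 4 fell at the second step, with a median of 0.96. Id2, an inhibitor of E proteins listed with the dendritic and lymphoid genes, had 187 and 182 RPM in Ly6C+ monocytes against 10.1 and 12.5 RPM in cMoP (log2 ratio 3.93, adjusted p = 6.84e-08). Irf5, a factor of inflammatory cytokine genes, had 431 and 395 RPM against 55.6 and 66.2 RPM in cMoP (log2 ratio 2.75, adjusted p = 2.48e-08). Irf4, a factor of dendritic cells and lymphocytes, had 16.0 and 23.3 RPM against 3.94 and 1.25 RPM in cMoP (log2 ratio 2.61, adjusted p = 4.03e-05). Nr4a1, needed for Ly6C- monocytes in mice, had 46.0 and 55.0 RPM against 27.1 and 26.2 RPM in cMoP. Its log2 ratio of 0.89 (adjusted p = 0.016) had an adjusted p of 0.107 without Ly6C+ II, 0.0554 without cMoP I and 0.0569 without cMoP II.

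**Figure D4:**
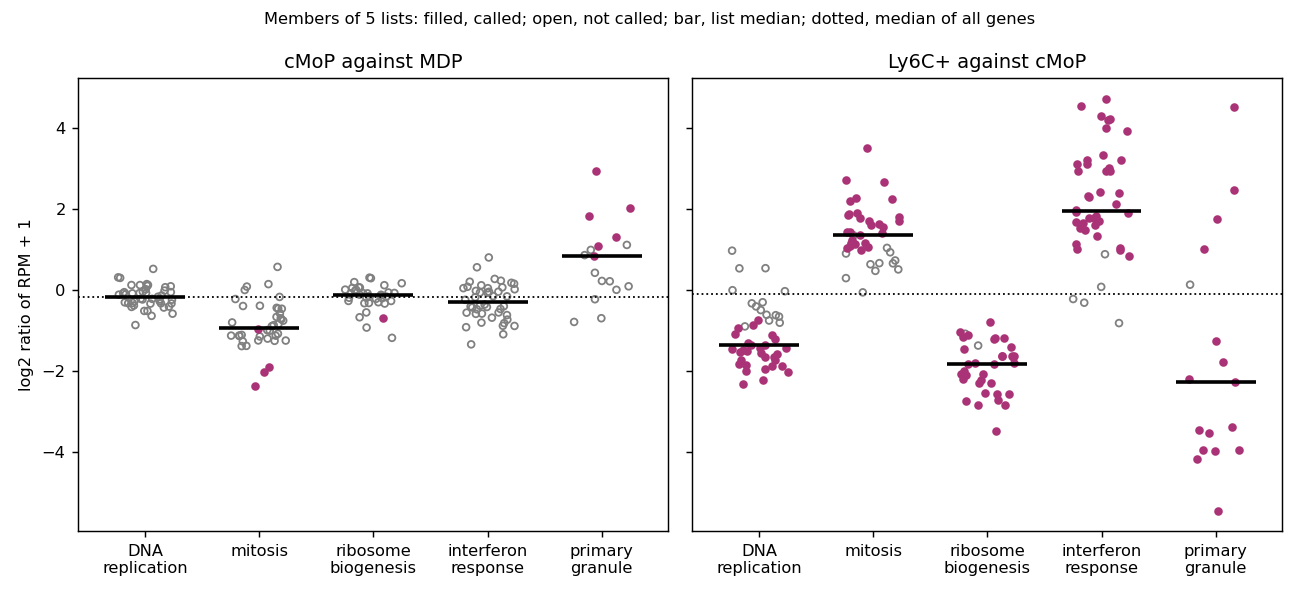
Log2 ratio of RPM plus 1 for the members of 5 gene lists, in a panel for each step, with 1 point per gene (filled where it passed the test), a bar at the list median and a dotted line at the median of all genes. In Ly6C+ against cMoP, interferon genes have a median of 1.94 and mitosis genes of 1.36, while DNA replication genes lie at -1.35.

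Cell cycle genes split at the second step. The DNA replication list, genes that license and copy DNA, had 0 of 45 called at the first step by limma, edgeR or DESeq2 (median -0.17, and 0 at an unadjusted p under 0.05), and 30 lower and 0 higher at the second (median -1.35). The list summed to 7737 and 7567 RPM in MDP, 7157 and 6612 RPM in cMoP, and 3047 and 2638 RPM in Ly6C+ monocytes. Mcm3, a subunit of the replicative helicase, had 102 and 97.4 RPM in Ly6C+ monocytes against 418 and 329.7 RPM in cMoP (log2 ratio -1.88, adjusted p = 5.76e-05). Cdt1, which loads that helicase, had 96.9 and 73.3 RPM against 253 and 252 RPM (log2 ratio -1.57), and Dut, which removes dUTP, had 85.9 and 60 RPM against 291 and 289 RPM (log2 ratio -2.0). Rrm2, the small subunit of ribonucleotide reductase, had 118 and 116 RPM against 61.3 and 106 RPM and did not pass (log2 ratio 0.54, adjusted p = 0.315).

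Mitosis genes went the other way. Of 40 genes, 28 rose and 0 fell in Ly6C+ against cMoP, with a median of 1.36, after 4 had fallen and 0 risen in cMoP against MDP, with a median of -0.93. The list summed to 3579 and 3132 RPM in MDP, 2090 and 2016 RPM in cMoP and 5049 and 4764 RPM in Ly6C+ monocytes. By stage means 36 of the 40 genes were lowest in cMoP and 37 highest in Ly6C+ monocytes. The share of all genes with these extremes was not computed, and both steps use the same cMoP libraries. The count of 28 was 16 without cMoP I, 18 without Ly6C+ I and 15 with a pseudocount of 0.25 RPM. The count of 4 was 0 without MDP I and 21 with a pseudocount of 5 RPM. Ube2c, the ubiquitin-conjugating enzyme of the anaphase-promoting complex, had 157 and 157 RPM in MDP, 75.3 and 56.8 RPM in cMoP and 393 and 450.5 RPM in Ly6C+ monocytes (log2 ratio against cMoP 2.67, adjusted p = 7.07e-05). Kif11, the kinesin that separates spindle poles, had 59.5 and 45.0 RPM, 17.9 and 20.6 RPM, and 79.8 and 107 RPM at the same stages (log2 ratio 2.20, adjusted p = 0.00044). Both lay lowest in cMoP, and their Ly6C+ libraries lay above all others. Prc1, which bundles microtubules of the central spindle, had 58.2 and 42.6 RPM in MDP, 12.3 and 10.6 RPM in cMoP and 93.9 and 68.3 RPM in Ly6C+ monocytes (log2 ratio against cMoP 2.71, adjusted p = 0.000101). Its first-step ratio of -2.03 (adjusted p = 0.00705) had an adjusted p of 0.0756 without MDP I. Cdk1, the mitotic kinase, did not pass, with 158 and 124 RPM in Ly6C+ monocytes and 84.0 and 96.2 RPM in cMoP (log2 ratio 0.63, adjusted p = 0.19).

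Promoter windows of these 3 genes are shown because each holds both elements known from promoters of genes expressed in G2 and M phase, CCAAT (bound by NF-Y) and TTTGAA (the cell cycle genes homology region). Both were searched on both strands in the 250 bases before the RefSeq start (GRCm38.p6), where the other strand reads ATTGG and TTCAAA. Capitals mark the matches.
Prc1, chr7:80294399-80294466 (+): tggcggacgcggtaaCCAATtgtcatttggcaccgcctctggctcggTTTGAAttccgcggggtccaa
Ube2c, chr2:164769857-164769920 (+): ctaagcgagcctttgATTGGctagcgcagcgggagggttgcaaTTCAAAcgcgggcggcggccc
Kif11, chr19:37376322-37376381 (+): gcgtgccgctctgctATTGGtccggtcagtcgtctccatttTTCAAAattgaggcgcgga
Only 33 of the 40 mitosis genes have a window, above the minimum of 80% of members set for giving a share. Of the 33, 25 held CCAAT (75.8%, against 37.5% of all genes that have a window), 10 held TTTGAA (30.3%, against 18.3%) and 9 held both (27.3%, against 7.3%). Over the tested genes that have a window, the shares were 40.7%, 12.7% and 5.7%. A match is a description of letters and not of binding.

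Ribosome biogenesis genes had 34 of 36 lower and 0 higher at the second step, with a median of -1.82. At the first step only Pa2g4, an ErbB3-binding nucleolar protein, was called (lower), and its adjusted p lay between 0.0508 and 0.231 with any 1 marrow library left out. Nolc1, a nucleolar phosphoprotein, had 44.2 and 45.8 RPM in Ly6C+ monocytes against 366 and 290.4 RPM in cMoP (log2 ratio -2.83, adjusted p = 8.68e-07). Gar1, a component of the particles that pseudouridylate ribosomal RNA, had 15.3 and 20.8 RPM against 137 and 109 RPM (log2 ratio -2.71), and Ncl, nucleolin, had 248 and 212 RPM against 923 and 698 RPM (log2 ratio -1.80). Of 76 cytosolic ribosomal protein genes, 41 were lower and 0 higher, with a median of -0.86, and the 41 became 21 without cMoP I and 24 without Ly6C+ I. Their sum was 59566 and 66749 RPM in MDP, 70495 and 50917 RPM in cMoP, and 33285 and 34514 RPM in Ly6C+ monocytes.

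Of the 25 progenitor genes 17 fell, 2 rose and 6 did not pass at the second step, with a median of -2.12 (-1.54 with the genes at 0 in Ly6C+ monocytes set at their bound). Kit, a sort marker counted among the 17, fell by 4.71 on the log2 scale (adjusted p = 5.83e-07) and Cd34 by 4.29 (adjusted p = 2.29e-07). Myc, a driver of growth, had 347 and 319 RPM in MDP, 217 and 280.4 RPM in cMoP and 13.5 and 6.66 RPM in Ly6C+ monocytes (log2 ratio against cMoP -4.55, adjusted p = 2.29e-07). Ccnd2, cyclin D2 of the G1 phase, had 1.23 and 0.833 RPM in Ly6C+ monocytes against 126 and 215 RPM in cMoP (log2 ratio -6.36), which was the largest fall among the genes tested at this step. Bcl2, an inhibitor of apoptosis, had 3.68 and 1.67 RPM against 111 and 127 RPM in cMoP (log2 ratio -5.08). Nedd4, a ubiquitin ligase, was at 0 in both Ly6C+ libraries, at least 20.4-fold lower than its 57.3 and 44.3 RPM in cMoP.

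Markers of other cell types moved at the second step as well, and their part in the gene group results was not tested. Neutrophil markers, several of which granulocyte and monocyte progenitors also express, summed to 3857 and 4771 RPM in MDP, 4262 and 3451 RPM in cMoP, and 733 and 713 RPM in Ly6C+ monocytes, with 9 of 14 lower and 3 higher. Camp, the cathelicidin of secondary granules, had 36.8 and 19.2 RPM in Ly6C+ monocytes against 1004 and 438 RPM in cMoP (log2 ratio -4.59). Ngp had 58.9 and 36.6 RPM against 919 and 831 RPM (log2 ratio -4.20), and S100a9, a subunit of calprotectin, had 136 and 157 RPM against 969 and 1241 RPM (log2 ratio -2.90). Ly6g, the defining surface antigen of neutrophils, lay between 4.16 and 11.7 RPM in all 6 libraries and did not pass at either step. Neutrophil markers and azurophil granule genes thus fell at the same step.

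Haemoglobin stood high in the Ly6C+ libraries. Hbb-b1 had 115 and 376 RPM in MDP, 170.3 and 337 RPM in cMoP and 3371 and 2359.8 RPM in Ly6C+ monocytes (log2 ratio against cMoP 3.55, adjusted p = 0.00321). Erythroid markers summed to 386 and 984 RPM in MDP, 561 and 961 RPM in cMoP, and 6617 and 5017 RPM in Ly6C+ monocytes, with 5 of 15 higher and 8 lower at the second step. Alas2, the erythroid enzyme of haem synthesis, had 64.4 and 28.3 RPM in Ly6C+ monocytes against 4.82 and 8.12 RPM in cMoP (log2 ratio 2.59, adjusted p = 0.00286). Car1, carbonic anhydrase 1 of erythroid cells, had 0 and 0.833 RPM in Ly6C+ monocytes against 38.1 and 31.8 RPM in cMoP (adjusted p = 3.52e-06). The 5 became 3 without Ly6C+ I and 2 without cMoP I, and the 8 became 2 with edgeR and 1 with DESeq2. Hbb-b1 and Hbb-b2, like Hba-a1 and Hba-a2, are near-identical copies among which reads could be divided, so their single values are uncertain.

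B cell markers summed to 121 and 101 RPM in MDP, 128 and 124 RPM in cMoP, and 33.1 and 32.5 RPM in Ly6C+ monocytes. Most of each sum was Cd79b, which had 96.2 and 74.3 RPM, 109 and 103 RPM, and 31.3 and 31.6 RPM at these stages. Among the B cell markers, Ms4a1 and Pax5 were at 0 in all 6 libraries. Of these markers 5 of 8 were lower and 0 higher in Ly6C+ than in cMoP, and the 5 became 3 without Ly6C+ II and 1 with edgeR or DESeq2. T and NK cell markers summed to at most 16.0 RPM in any library, with Cd3e and Cd3g at 0. Eosinophil, basophil and mast cell markers summed to 33.1 and 23.3 RPM in Ly6C+ monocytes and 181 and 220.4 RPM in cMoP, with 7 of 9 lower, a count that became 4 with DESeq2 or a 10 RPM filter. Tissue macrophage markers had 4 of 11 higher and 1 lower, and their sum was 341 and 309 RPM in Ly6C+ monocytes against 84.5 and 106 RPM in cMoP. Among them Hmox1, which degrades haem, had 128 and 87.4 RPM against 7.88 and 11.9 RPM (log2 ratio 3.32, adjusted p = 9.02e-08).

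The 7-week table holds the same marrow populations (MDP and cMoP n = 4 each, Ly6C+ n = 3), and its values are set beside those of the 8-week course without a test of their difference. Over 11044 genes tested in both, the log2 ratios correlated with r = 0.630 for cMoP against MDP and r = 0.843 for Ly6C+ against cMoP, across genes, which are not independent replicates. Of the 8-week calls, 361 of 522 (69.2%) were also called in the same direction at 7 weeks for the first step and 2940 of 4116 (71.4%) for the second. These are 35.6% of the 1015 and 69.3% of the 4243 calls of the 7-week table among the genes tested in both. Calls in opposite directions numbered 0 at the first step and 9 at the second.

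By list, 38 of 44 interferon genes were higher and 34 of 36 ribosome biogenesis genes lower at 7 weeks in Ly6C+ against cMoP. Of all 11373 genes tested at 7 weeks, 1737 were higher and 2549 lower at that step (median -0.17). In cMoP against MDP at 7 weeks, 591 of all genes were higher and 461 lower (median -0.01). The granule list had 12 of 17 higher in cMoP than in MDP at 7 weeks, against 6 here. The mitosis list differed in its counts, with 4 of 40 higher in Ly6C+ than in cMoP and 0 lower in cMoP than in MDP at 7 weeks (medians 0.42 and -0.19). The list summed to between 3965 and 4313 RPM in MDP, 3533 and 3708 RPM in cMoP and 4706 and 5246 RPM in Ly6C+ monocytes at 7 weeks. Neutrophil markers summed to 89 to 150 RPM in 7-week MDP, 97 to 134 RPM in 7-week cMoP and 403 to 558 RPM in 7-week Ly6C+ monocytes, so both 8-week progenitors held at least 3451 RPM of these genes where the 7-week progenitors held at most 150 RPM.

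**Figure D5:**
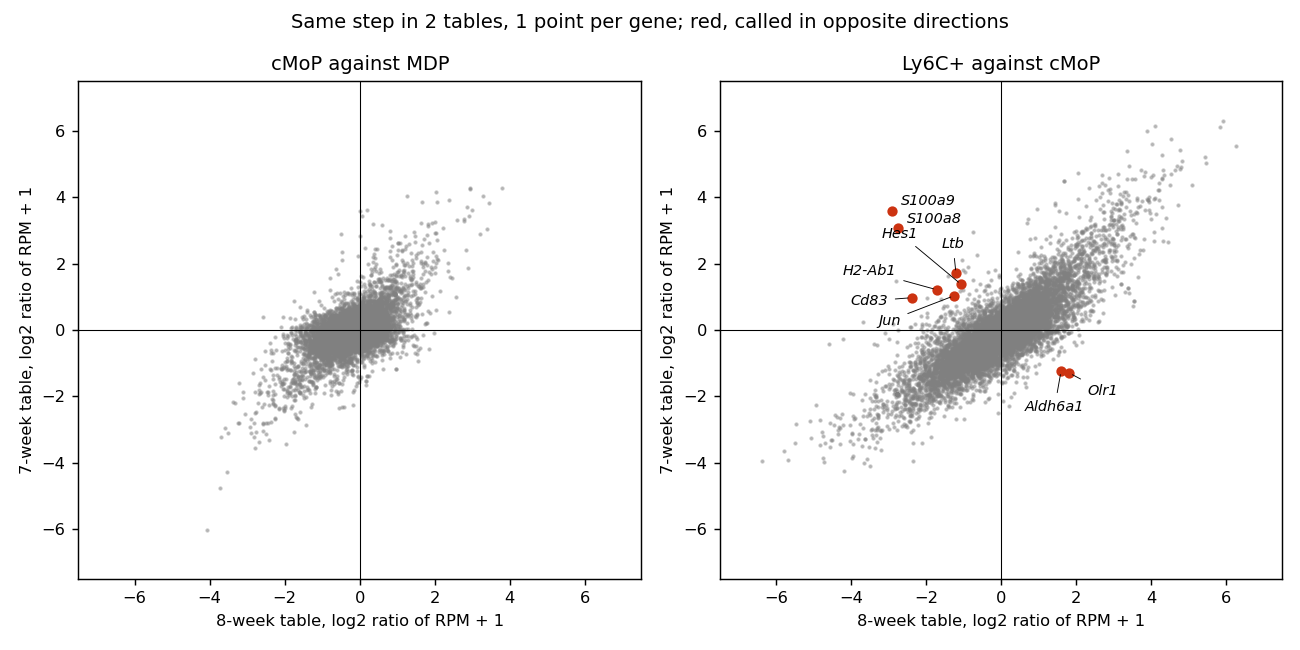
Log2 ratio of RPM plus 1 of each gene at 8 weeks (horizontal axis) and at 7 weeks (vertical axis), in a panel for each step, over 11044 genes tested in both tables, with genes called in opposite directions in red. The 9 red genes lie in the panel of Ly6C+ against cMoP, S100a8 and S100a9 below 0 at 8 weeks and above 0 at 7 weeks.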

How the data were processed

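The authors deposited signal values, gene reads scaled to a common total per library, for 24421 genes in a table of 16 libraries, 6 of them the marrow duplicates. Per the submitters' processing notes, the tools were bcl2fastq, HISAT 0.1.5, SAMtools and HOMER with genome build mm9. The counting options, strand and annotation are not given in the sources used here. No label states the common total. It was assumed to be HOMER's default of 10000000, and values were converted to RPM on that basis. Plain ratios do not depend on that total. Values within a column are integer multiples of what a read is worth there, from which whole reads were recovered (100% of values within 0.1 read), and all columns were matched to samples by their labels (0 left over). How reads of sequence-sharing genes (Apoc2, Hba-a1 and Hba-a2, Hbb-b1, Ly6c1 and Ly6c2) were divided is not stated.

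Tests used limma 3.58.1 in R 4.3.3 with a trended prior, applied to log2-transformed RPM after adding 1, over all 16 libraries, 1 mean per group and no block, for 11388 genes with at least 2 RPM in at least 2 libraries. The call was a Benjamini-Hochberg adjusted p under 0.05 over all genes tested. The 6 marrow libraries are the only replicates of their groups, and the shared fit assumes that they vary like the 16-week blood libraries. The fit was checked on simulated data in which every group had the same spread, so that check does not bear on this assumption. SEs and p-values come from the spread between libraries, while the limits set at 3 reads cover counting error only. The reads have no molecular identifiers.

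Gene lists are given as counts called and medians beside those of all genes, with no set test. The members and lists were chosen with earlier results of these data known. Genes were named by a rule. It took the 10 largest log2 ratios in each direction at each step among genes called without overlap of the groups whose higher group averaged 20 RPM or more. It added up to 4 called members of each list by smallest p, 8 genes highest and 5 lowest in cMoP, 8 changing the same way at both steps, and a fixed set of sort markers and transcription factors. List members outside the rule, such as Cd74, H2-Ab1, Prtn3, Ctsg, Fcnb, Bst2, Il1b, Ncf1, Ncl, Ctsd, Rrm2, Cdk1, Nr4a1, Ly6g and Hbb-b1, were chosen after their values were seen. The promoter genes are the called list members with the largest ratios that hold the motifs, with promoters on a single chromosome left out of the choice.

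Promoter windows, the 250 bases before the start, come from RefSeq (GRCm38.p6), a later build than mm9. Alternatives were edgeR 4.0.16 with TMM and DESeq2 1.42.0 on recovered reads, other scalings, pseudocounts, filters and thresholds, a replicate block, the 6 marrow libraries alone and each library left out in turn. The 7-week table was fitted separately (25 libraries, 2 RPM in at least 3). The transfer table was not analysed here.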

Additional observations from a re-analysis of the deposited data

Results flagged for a closer look

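The 8 genes below were called in opposite directions in the 8-week and 7-week tables for Ly6C+ against cMoP, with groups that did not overlap in either table. The difference between the tables was not tested. The calprotectin subunits S100a8 and S100a9, abundant in neutrophils and monocytes, had log2 ratios of -2.75 and -2.90 at 8 weeks and 3.07 and 3.59 at 7 weeks. S100a8 had 44.2 and 95.8 RPM in 8-week Ly6C+ monocytes and 604 and 328 RPM in 8-week cMoP, but 102 to 182 RPM in 7-week Ly6C+ monocytes and 13.9 to 18.8 RPM in 7-week cMoP. S100a9 had 136 and 157 RPM in 8-week Ly6C+ monocytes and 969 and 1241 RPM in 8-week cMoP, but 109 to 155 RPM in 7-week Ly6C+ monocytes and 5.51 to 22.1 RPM in 7-week cMoP. The Ly6C+ ranges of S100a9 thus lay close to each other, and the cMoP ranges far apart.

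H2-Ab1, an MHC class II chain, had a log2 ratio of -1.71 at 8 weeks and 1.21 at 7 weeks. Without cMoP I, which alone held 1075 RPM, the 8-week ratio was -0.21 with an adjusted p of 0.615. The activation marker Cd83 had a ratio of -2.38 at 8 weeks, where both Ly6C+ libraries were at 0, and 0.97 at 7 weeks. The lymphotoxin gene Ltb had -1.20 and 1.70, and the Notch target Hes1 had -1.06 and 1.37. The scavenger receptor Olr1 had 1.82 at 8 weeks and -1.30 at 7 weeks, and the mitochondrial dehydrogenase Aldh6a1 had 1.60 and -1.24. Cd83, Hes1, Olr1 and Aldh6a1 lay below 10 RPM in every library of these groups, the highest being 8.11 RPM for Olr1 in 7-week cMoP.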

How the results depend on the processing

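In cMoP against MDP the count of called genes, 552 (208 higher, 344 lower), was 48 (23 and 25) in the 6 marrow libraries alone, 299 (218 and 81) with edgeR and TMM, 198 (159 and 39) with DESeq2 and 246 (109 and 137) at an adjusted p under 0.01. Quantile scaling gave 374 higher (58.3% of the calls) in place of 208. The lower genes numbered 191 and 589 with pseudocounts of 0.25 and 5 RPM (49.5% and 27.3% of the calls then being higher), 555 with no filter and 216 with a 10 RPM filter (48.4%). In the 6 libraries alone 47.9% of the calls were higher. Leaving out 1 library gave 225 to 667 called, 98 to 186 higher and 127 to 481 lower, a lone library being assumed to vary like the other groups. In Ly6C+ against cMoP the count of 4189 (1859 and 2330) was 2727 with DESeq2 (1329 lower), 2639 (1219 and 1420) at an adjusted p under 0.01, and 2980 to 3987 with 1 library left out (1357 to 1971 higher, 1529 to 2016 lower). The cause of these shifts was not tested. No named gene changed direction among its calls. Between libraries of the same number, deviations from the group means correlated across genes at -0.31 for cMoP and MDP and 0.03 for Ly6C+ and cMoP. Whether libraries of the same number share a source was not tested. The replicate block gave 541 calls (205 and 336) and 4106 (1815 and 2291). The crossed pairing of cMoP with MDP, chosen after seeing the data, gave 626 calls (232 and 394). The lists recomputed with each library left out were also chosen after seeing the data. Of 79 named calls of the first step, 37 were lost without MDP I and 17 without MDP II. Of 227 named calls of both steps, 64 were lost in the 6 libraries alone, 22 with edgeR and 7 with the replicate block, and of 208 with an adjusted p from DESeq2, 30 were lost. With genes at 0 in a group set at their bound, medians were -0.19 for the dendritic and lymphoid list and 0.17 for transcription factors at the first step, and 2.13 for monocyte effectors and 1.38 for the Toll-like receptor list at the second. Depth limits low genes, as 3 reads correspond to 1.17 to 2.5 RPM.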
